A study of Mus musculus with 2 samples.

Results

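The genes described here encode the machinery that carries proteins made in the cytosol into mitochondria. They were taken from the gene tables of MEL cells, a mouse erythroleukemia line that takes on red cell features when it is exposed to dimethyl sulfoxide (DMSO). A gene was included when it is protein-coding and its symbol begins with Timm, Tomm, Mtx and a number or Grpel, or is Pmpca, Pmpcb, Samm50 or Pam16. The rule used names and no measured value. It found 35 genes among 21474 protein-coding genes, out of 43346 genes with an Ensembl identifier in the tables. All cells carried the same treatment, 2% DMSO for 5 days, and no untreated cells were analysed here. PolyA RNA was sequenced from single ends in 2 libraries, named replicate 1 and replicate 2 after the biological replicate numbers in the labels. Both libraries bear the same cell sample identifier, so the labels leave unsettled whether they came from separate cultures, and every SD below may hold technical spread alone. With 1 group there was no contrast to test, and a difference between the libraries is a difference of 1 library against 1, without a p-value.

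Nearly all mitochondrial proteins are encoded in the nucleus and enter the organelle after translation. As background, precursors bind receptors of the TOM complex and pass its beta-barrel pore. They are then handed to the TIM23 complex and its ATP-driven motor (matrix proteins), to the small TIM chaperones and the TIM22 complex (carrier proteins) or to the SAM complex (beta-barrel proteins). The matrix processing peptidase removes the targeting presequence. In red cell precursors the first and last steps of heme synthesis lie inside mitochondria, and their enzymes use this route.

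Replicate 1 held 26149725 estimated reads and replicate 2 held 14149299. All 10 erythroid genes looked up were present at 1 TPM (a gene's share of all transcripts, scaled for their length) or more in both libraries, and together they took 2.77% and 7.64% of all TPM. Most of that difference lay on the globin gene Hba-a2, at 6026 and 39530 TPM. Of the 10, Tfrc alone was lower in replicate 2, at 125 and 65.2 TPM. Of 13 markers of other cell types, 4 reached 1 TPM in both libraries, led by the megakaryocyte integrin gene Itga2b at 74.7 and 149 TPM. After it came Pf4 (13.7 and 20.1 TPM), Ptprc (9.88 and 4.95) and Pecam1 (5.59 and 6.06). The granulocyte gene S100a8, the mast cell gene Cpa3 and the liver gene Alb were at 0 in both, and Kit was at 0.10 and 0.01 TPM. Because the erythroid genes took a larger share of replicate 2, levels are given per library. In such bulk samples, fewer cells of a type and less RNA per cell cannot be told apart. The part of that difference in the results below was not tested.

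The import genes were widely present. Of the 35, 33 reached 1 TPM in both libraries, or 94.3%, against 45.5% of all protein-coding genes. The median level of all 35 was 23.5 TPM (19.4 in replicate 1 and 28.3 in replicate 2), where that of all protein-coding genes was 0.60. Over genes present in both libraries, the median was 26.6 TPM for the 33 members and 15.5 TPM for protein-coding genes. Summed, they made up 1060.05 TPM in replicate 1 and 1395 TPM in replicate 2, a mean of 1228 ± 237 TPM (SD, n = 2), or 0.106% and 0.140% of all TPM. Levels ran from 0 to 138 TPM. Among the 34 neighbouring pairs in the order of mean level, the ranges over both libraries overlapped in 31, so that only broad steps in the order stood clear of the spread. The 3 exceptions were Tomm7 above Timm8b, Grpel2 above Timm8a1, and Mtx3 above Tomm20l. The step from Grpel2 to Timm8a1 was narrow, with 2.77 and 2.73 TPM in replicate 2. It also depends on a near-identical copy of Timm8a1 (below), with which the mean of Timm8a1 was 29.7 TPM.

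**Figure D1:**
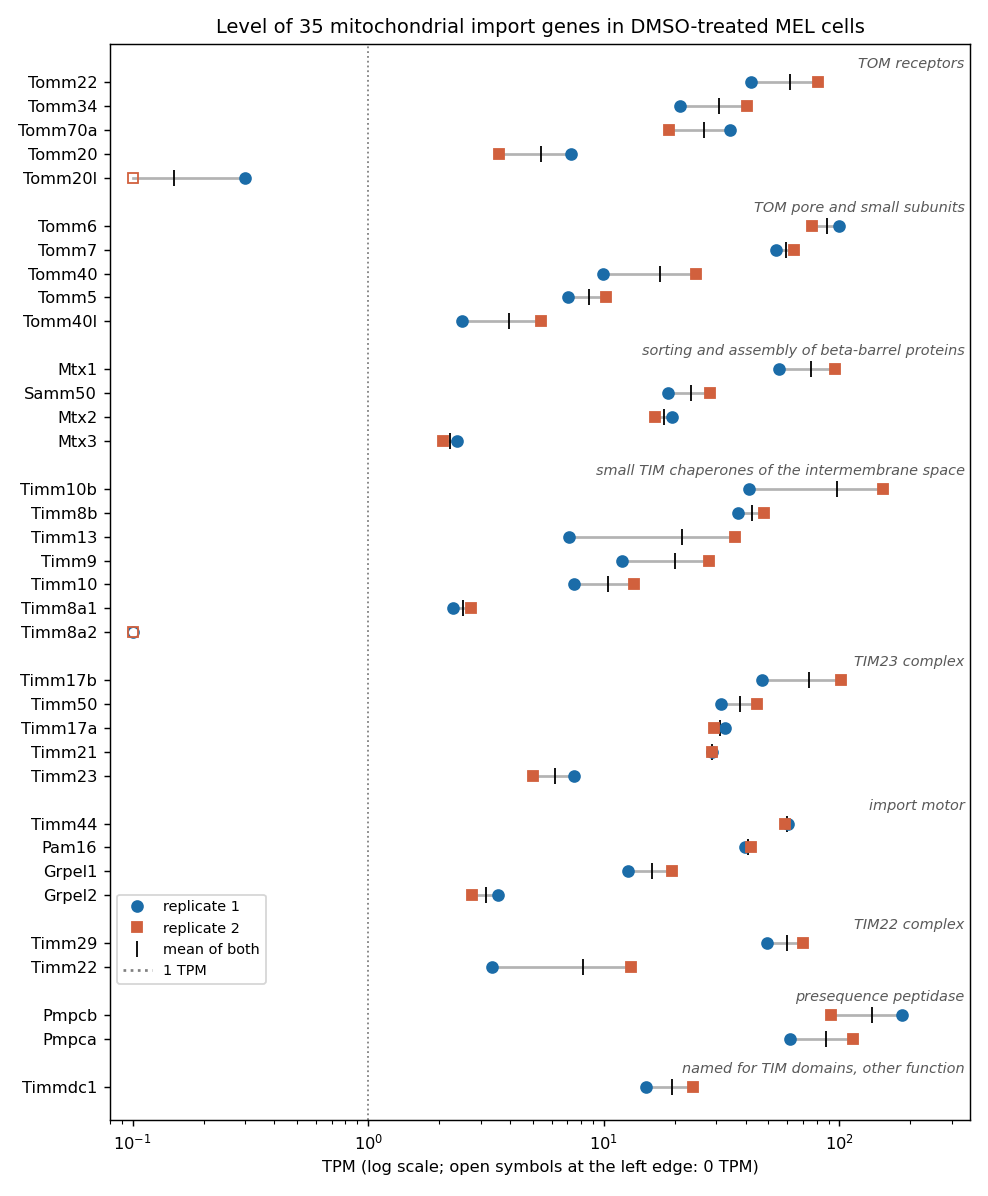
Level of each import gene in TPM on a log axis, grouped by the role of its protein, with a circle for replicate 1, a square for replicate 2 and a bar at their mean. In 33 genes both symbols lie to the right of the dotted line at 1 TPM, and the distance between the symbols is widest on this scale for Timm13, Timm22 and Timm10b among the genes with reads in both libraries.

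Among the TOM receptors, the central receptor gene Tomm22 was highest, at 42.2 TPM in replicate 1 and 81.1 in replicate 2 (mean 61.6 ± 27.5, SD, n = 2). Tomm70a, whose protein takes up carrier precursors delivered by chaperones, was at 34.4 and 18.9 TPM. Tomm34, a soluble co-chaperone of precursors, was at 21.03 and 40.37 TPM. The presequence receptor gene Tomm20 was lower, at 7.28 and 3.59 TPM, and its paralog Tomm20l gave 4 reads in replicate 1 and none in replicate 2, where a count of 0 allows up to 0.397 TPM. Tomm22 and Tomm34 were thus higher in replicate 2, and Tomm70a and Tomm20 in replicate 1. With its near-identical copies added (below), Tomm20 was instead higher in replicate 2 by TPM, at 19.2 and 25.4. By reads scaled between the libraries it stayed lower in replicate 2, with a log2 ratio of replicate 2 to replicate 1 of -0.88.

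The small TOM subunit genes Tomm6 and Tomm7 outranked the pore gene, and Tomm5 did not. Tomm6 stood at 99.9 and 76.6 TPM and Tomm7, also known for holding the kinase PINK1 at the outer membrane, at 54.1 and 64.5 TPM. The pore gene Tomm40 was at 9.95 and 24.5 TPM (mean 17.2 ± 10.3, SD, n = 2), lower than both of these in each library. Tomm5, the remaining small subunit, was at 7.08 and 10.3 TPM, and the pore paralog Tomm40l at 2.51 and 5.42 TPM.

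In the SAM group, which folds beta-barrel proteins into the outer membrane, the metaxin gene Mtx1 was highest at 55.5 and 96.2 TPM, most of it on transcripts that are not protein-coding (below). Samm50, the beta-barrel core of the complex, was at 18.7 and 28.3 TPM. Mtx2, the partner of Mtx1, was at 19.4 and 16.4 TPM, and Mtx3 at 2.39 and 2.07 TPM. The order Mtx1, then Samm50 or Mtx2, then Mtx3 was the same in both libraries.

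The small TIM chaperones shield hydrophobic precursors on their way across the intermembrane space. As a group they showed the widest difference between the libraries of the groups with more than 1 gene, 107 TPM summed in replicate 1 and 282 in replicate 2 (mean 194 ± 123, SD, n = 2). Timm10b, a subunit of the TIM22 complex, was at 41.2 and 154 TPM and gave the largest part of that difference. Most of its TPM lay on transcripts that a later annotation gives to another gene, Gm45799 (below). Timm8b was at 37.3 and 47.9 TPM. Timm9 and Timm10, which form the main hexameric chaperone, were at 12 and 28.0 TPM and at 7.49 and 13.4 TPM. Timm13 was at 7.10 and 36.0 TPM, while Timm8a1, its partner in a second hexamer and the mouse counterpart of the gene mutated in deafness-dystonia syndrome, was at 2.30 and 2.73 TPM. Timm8a2 had no read in either library, which allows up to 0.143 and 0.252 TPM. The TPM of Timm8a1 is divided with a near-identical copy, described below.

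In the TIM23 complex, Timm17b was highest at 47.1 and 102 TPM. Timm50, the receptor that faces the intermembrane space, was at 31.3 and 44.5 TPM. Timm17a was at 32.8 and 29.3 TPM, and Timm21, which links the complex to TOM and to the respiratory chain, at 28.9 and 28.7 TPM, a mean of 28.8 ± 0.099 (SD, n = 2). The channel gene Timm23 itself was listed at only 7.47 and 4.99 TPM, below the other 4 members in each library. That value depends on how reads were divided among near-identical gene copies, as described below.

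The motor group summed to 117 TPM in replicate 1 and 123 in replicate 2, and the TOM pore group to similarly close values, 173 and 181. Within the motor group, Grpel1 was higher in replicate 2 and Grpel2 in replicate 1. Timm44, which tethers the mitochondrial Hsp70 to the channel, was at 60.7 and 58.8 TPM. Pam16, a regulator of the motor's J-proteins, was at 39.6 and 42.0 TPM. The nucleotide exchange factor gene Grpel1 was at 12.7 and 19.4 TPM, and its paralog Grpel2 at 3.54 and 2.77 TPM. In the TIM22 complex, which inserts carriers into the inner membrane, Timm29 was at 49.5 and 69.9 TPM, and the channel gene Timm22 at 3.36 and 13.0 TPM. For the presequence peptidase, Pmpcb, its catalytic subunit and the member with the highest mean level, was at 184 and 91.9 TPM (mean 138 ± 65.5, SD, n = 2), and Pmpca, its substrate-binding subunit, at 61.4 and 114 TPM. Timmdc1, named for its similarity to TIM proteins but known as an assembly factor of respiratory complex I, was at 15.1 and 24.0 TPM.

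Paralogs and partners were next compared within each library, which removes the scaling between libraries. Of 13 pairs fixed for this, 11 had reads for both genes in both libraries, and 10 of these kept their order. Timm17b exceeded Timm17a by 1.44-fold in replicate 1 and 3.47-fold in replicate 2. Grpel1 exceeded Grpel2 by 3.57-fold and 6.996-fold. Tomm40 exceeded Tomm40l by 3.96-fold and 4.53-fold. In these 3 pairs the same paralog was higher in both libraries. Timm8b exceeded Timm8a1 by 16.2-fold and 17.5-fold, but by 1.07-fold and 1.94-fold once the near-identical copy of Timm8a1 (below) was added to it, and Timm13 exceeded Timm8a1 by 3.09-fold and 13.2-fold. Timm9 exceeded its hexamer partner Timm10 by 1.60-fold and 2.09-fold, and Timm10b exceeded Timm10 by 5.50-fold and 11.5-fold. Without the transcripts that the later annotation gives to Gm45799 (below), the excess of Timm10b was 1.45-fold and 3.39-fold, and on its own protein-coding transcripts Timm10b was lower, with Timm10 ahead by 1.49-fold and 1.84-fold. Mtx1 exceeded Mtx2 by 2.86-fold and 5.86-fold. Timm17a exceeded Timm23 by 4.39-fold and 5.87-fold, and Tomm40 exceeded Tomm20 by 1.37-fold and 6.83-fold. The pair that changed order was the peptidase: Pmpcb exceeded Pmpca by 3.004-fold in replicate 1, and Pmpca exceeded Pmpcb by 1.24-fold in replicate 2. For Tomm20 and Tomm20l the ratio was 24.3 in replicate 1, with 4 reads on Tomm20l, and Timm8a2 had no read to compare with Timm8a1.

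The level of a gene is the sum over its transcripts, and a short transcript reaches a high TPM from few reads. Transcript tables were therefore examined for the 21 members with at least 2 transcripts. In 8 of them, or 38.1%, the transcript with the largest share of the gene's TPM, averaged over both libraries, was not protein-coding, against 23.9% of the 7385 protein-coding genes of that kind. These were Pmpcb, Pmpca, Mtx1, Timm17b, Pam16, Timm17a, Mtx2 and Tomm40l, so that 6 of the 14 highest members are among them. By share of reads instead of TPM, 5 of the 8 remained: Mtx1, Mtx2, Pam16, Timm17b and Tomm40l. That is 23.8% of the 21, against 13.9% of the same 7385 genes by reads. Over all 35 members, retained-intron transcripts held 26.8% and 21.6% of TPM in the 2 libraries, but 10.4% and 10.9% of reads. For all protein-coding genes, retained introns took 9.75% and 10.8% of TPM and 5.77% and 6.10% of reads.

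In Timm17b, a 761-base retained-intron transcript held 79.2% of TPM in replicate 1 and 86.9% in replicate 2, from 648 and 868 reads. Its 2381-base protein-coding transcript had 556 and 245 reads. In Timm17a a 565-base retained-intron transcript held 79.9% and 77.6% of TPM from 331 and 162 reads, while 676 and 220 reads lay on the 7280-base protein-coding transcript. The higher level of Timm17b over Timm17a held on protein-coding transcripts alone, at 1.49-fold and 2.03-fold. In Pam16 a 346-base retained-intron transcript held 95.4% and 68.0% of TPM, and its protein-coding transcripts were at 1.64 and 0 TPM. In Mtx2 a 728-base retained-intron transcript held 67.7% and 73.5%. For Mtx1 the protein-coding transcripts held 9.53% and 2.59% of TPM, nearly all of the rest lying on short transcripts marked as retained introns or as targets of nonsense-mediated decay.

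In the peptidase pair, the shares of transcripts differed between the libraries. A 378-base retained-intron transcript of Pmpcb held 70.9% of its TPM in replicate 1 (131 TPM from 1058 reads) and 38.1% in replicate 2 (35 TPM from 160.1 reads). The 1615-base protein-coding transcript of Pmpcb had 1731 and 1207 reads, or 45.5 and 56.1 TPM. For Pmpca, processed transcripts of 544 and 439 bases led in replicate 1 and in replicate 2 with 60.7% and 48.0% of TPM, while 1499 and 1068 reads lay on the 3135-base protein-coding transcript. Counted on protein-coding transcripts alone, Pmpcb exceeded Pmpca by 2.31-fold in replicate 1 and 2.20-fold in replicate 2, so the change of order between the libraries was not seen there. On that scale all 11 pairs kept their order.

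The leading transcript differed between the libraries in 8 of the 21 members, or 38.1%, against 30.6% of the same 7385 genes. These were Pmpcb, Pmpca, Mtx1, Timm44, Tomm5, Timm22, Timm23 and Tomm40l. By share of reads the number was also 8, against 22.2% of the 7385 genes, but with 5 genes in common: Pmpcb, Pmpca and Timm44 kept a protein-coding leader, and Mtx2, Timm10b and Timm9 differed. In Timm22 the leading transcript was 2817 bases long in replicate 1, with 72.6% of TPM, and 746 bases long in replicate 2, with 59.0%. Its reads were 175 and 160, and the mean length used to scale them was thus shorter in replicate 2, so that the log2 ratio of TPM was 1.95 where that of scaled reads was 0.44. Timm10b differed likewise, by 1.90 on the log2 scale in TPM and by 0.84 in scaled reads. The transcript that led Timm10b in both libraries, 367 bases long with 65.2% and 67.3% of TPM, belongs in the later annotation to the overlapping gene Gm45799, so the level of Timm10b is uncertain. Without the 3 transcripts given to Gm45799, Timm10b stood at 10.9 and 45.5 TPM. In Timm44 a processed transcript of 875 bases led in replicate 1 with 50.9% and the 1790-base protein-coding transcript in replicate 2 with 62.0%. Tomm5 and Timm23 switched between protein-coding transcripts. Tomm40l passed from a retained-intron transcript, with 35.3% in replicate 1, to one marked for nonsense-mediated decay, with 66.9% in replicate 2, but on 17.0 and 98.9 reads.

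**Figure D2:**
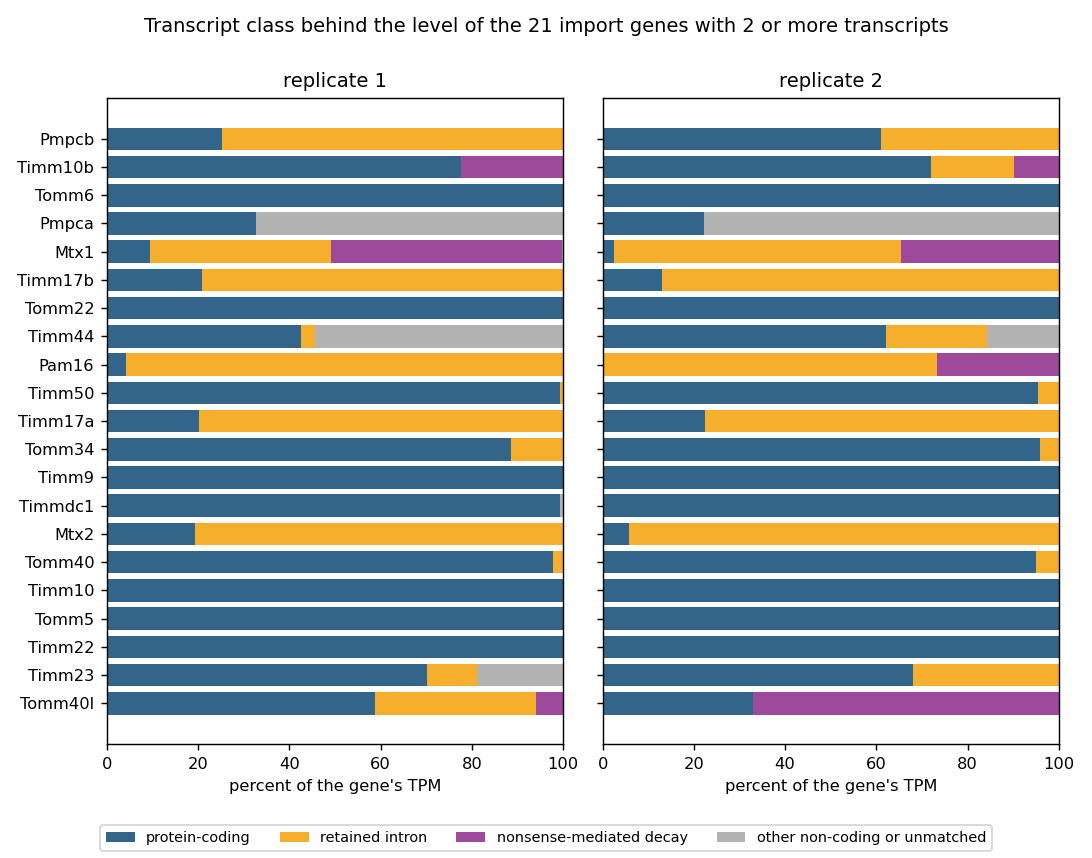
Share of each gene's TPM by transcript class (horizontal axis, percent) in replicate 1 (left) and replicate 2 (right), for the 21 import genes with at least 2 transcripts, ordered by mean level with the highest at the top. Timm17b, Timm17a, Pam16 and Mtx2 are mostly retained-intron in both libraries, and the protein-coding share of Pmpcb is 25.2% in replicate 1 and 61.1% in replicate 2.

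With TPM on protein-coding transcripts alone, 31 of the 35 members reached 1 TPM in both libraries, against 42.6% of all protein-coding genes. Pam16 and Mtx2 no longer did. For Pam16 this depends on how reads were divided with its near-identical copy Gm9803 (below), listed at 1.82 and 5.47 TPM. The highest members were then Tomm6 (88.3 TPM), Timm10b (71.3), Tomm22 (61.6), Timm29 (59.7) and Tomm7 (59.3), and Pmpcb followed at 51.3 ± 6.87 TPM (SD, n = 2). Most of that value of Timm10b lay on transcripts given to Gm45799, and its own protein-coding transcripts were at 5.02 and 7.29 TPM. The median of all 35 members was 16.5 TPM. That of all protein-coding genes was 0.35, and that of the protein-coding genes present by gene level was 11.3. Across the 35 genes, Spearman's rho between mean level and mean level on protein-coding transcripts was 0.75, a description over genes that share the same 2 libraries.

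Some import genes have near-identical copies elsewhere in the genome, among which reads of these lengths cannot always be placed. A search of member transcripts against all annotated transcripts, at 95% identity over 80% of the shorter one, found 12 copies outside the member's own locus for 6 members, 10 of them classed as processed pseudogenes. Of the 12, 8 had reads and 5 reached a mean of 1 TPM. Those 5 were Gm10171 and Gm10273 (copies of Timm23), Gm9797 (Timm8a1), Gm14494 (Tomm20) and Gm9803 (Pam16). The first 60 coding bases of Timm23 and Timm8a1, and coding bases 139 to 198 of Tomm20, which is the first stretch covered by both copies shown, are given with the matching bases of their copies from GENCODE M21 transcripts, 5′ to 3′, to show how little separates them. Capitals mark a mismatch to the member.
Timm23: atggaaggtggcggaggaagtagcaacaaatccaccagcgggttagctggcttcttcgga
Gm10171: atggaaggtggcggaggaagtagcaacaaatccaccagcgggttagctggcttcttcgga
Gm10273: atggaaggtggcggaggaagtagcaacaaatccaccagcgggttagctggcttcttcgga
Gm16209: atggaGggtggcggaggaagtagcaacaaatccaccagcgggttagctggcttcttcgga
Timm8a1: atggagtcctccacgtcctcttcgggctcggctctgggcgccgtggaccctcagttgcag
Gm9797: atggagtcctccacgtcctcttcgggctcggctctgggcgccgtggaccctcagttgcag
Tomm20: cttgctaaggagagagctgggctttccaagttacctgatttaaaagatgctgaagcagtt
Gm14494: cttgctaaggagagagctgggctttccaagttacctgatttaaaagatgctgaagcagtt
Gm15365: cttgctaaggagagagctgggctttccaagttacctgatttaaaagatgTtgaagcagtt

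Timm23 (mm10 chr14:32180162-32201898, minus strand) is the clearest case. Its copy Gm10171 (chr1:172144274-172144901, minus strand) matched it without a mismatch over 628 bases, and Gm10273 (chr10:59395632-59396757, plus strand), which is annotated as protein-coding, had 1 mismatch in 1121 bases. Over the 627 coding bases, Gm16209 had 11 mismatches, and Gm10171 and Gm10273 had none. A further copy, Gm10233, identical over 628 bases, was given no read in either library. Timm23 received 180 and 42.7 reads, while its copies together received 641 and 356, or 78.1% and 89.3% of the reads of the family. Gm10171 alone was listed at 44.2 and 31.5 TPM. Gm10273 was listed at 0 TPM in replicate 1 and 6.90 in replicate 2. Of the 45-base windows of the longest protein-coding Timm23 transcript, 91.4% occur in another gene, where 45 bases is the span implied by the effective lengths in the tables. Summed with its copies, the Timm23 family stood at 52.8 and 43.7 TPM (mean 48.2 ± 6.46, SD, n = 2) and was above Timm17a in both libraries. In reads, which are not scaled for length, the family was below Timm17a, with 821 and 399 against 1035 and 408.

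Timm8a1 (chrX:134537256-134541865, minus strand) received 76.7 and 51.4 reads, and its copy Gm9797 (chr10:11609223-11609835, plus strand), identical over 612 bases, received 895 and 343, or 92.1% and 86.9% of the pair. With the copy added, the level was 34.8 and 24.7 TPM, and the order of Timm13 and Timm8a1 turned, with Timm13 lower in replicate 1. Windows shared with another gene made up 41.2% of the Timm8a1 transcript. Tomm20 (chr8:126930667-126945844, minus strand) kept most of its reads, 872 and 243, against 111 and 116 on its copies. Because the copy Gm14494 (chr2:153826171-153826605, plus strand) is 435 bases long and the Tomm20 transcript 4986, the copy had the higher TPM, 11.4 and 21.4. With its copies added, Tomm20 stood at 19.2 and 25.4 TPM, above Tomm40 in both libraries. That sum adds TPM over transcripts of unlike length. In reads, Tomm20 with its copies had 983 and 359 against 342 and 511 for Tomm40, and was lower in replicate 2. Pam16 had 300 and 191 reads beside 20.9 and 35.4 on Gm9803. Of the 45-base windows of its protein-coding transcript, 88.8% occur in another gene. Whether the RNA comes from the gene or from its copy was not tested.

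**Figure D3:**
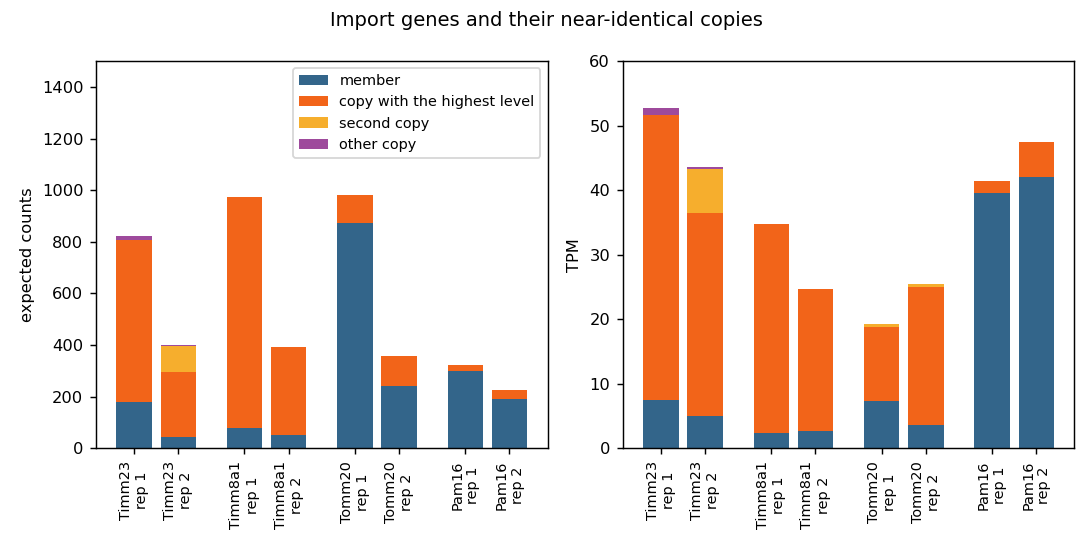
Expected counts (left, vertical axis) and TPM (right, vertical axis) of 4 import genes and their near-identical copies stacked on them, for each library, with the member in blue and its copies in other colours. In Timm23 and Timm8a1 most of the bar belongs to copies on both scales, whereas in Tomm20 most reads but less than the copies' TPM belong to the member.

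Further overlap lies within the loci. By annotation, 15 members share exon bases with a gene on the opposite strand, and the sources used here do not state whether reads were assigned by strand. The shares of all protein-coding genes with such an overlap, or with near-identical copies, are not given here. Neither count is thus shown to be particular to import genes. For Tomm40l the shared part was 64.3% of its exons, but the partner Nr1i3 had 2.12 and 0 reads. For Pmpca it was 20.4%, shared with Inpp5e, which had 512 and 497 reads. Tomm6 (chr17:47686646-47688386, minus strand) shares 76.0% of its exon bases on the same strand with Gm21981, which was given 16.6 and 9 reads beside 1629.6 and 727 on Tomm6.

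RefSeq promoters (GRCm38.p6, 250 bases before to 50 after the start) were found for 31 members and searched on both strands for 3 motifs tied to nuclear control of mitochondrial genes. The ETS motif CCGGAAGT (reverse complement ACTTCCGG), bound among others by the GABP subunit encoded by Gabpa, was in 10 of the 31, or 32.3%. It was in 10.7% of 7852 genes present in both libraries and in 4.31% of all 27025. The 10 were Mtx2, Mtx3, Pmpcb, Timm10, Timm10b, Timm23, Timm29, Timm8a2, Timmdc1 and Tomm70a. They range from the highest member to Timm8a2, which had no read. The YY1 motif AAGATGGCG (reverse complement CGCCATCTT) was in Mtx1, Mtx3 and Timm50, or 9.68%, against 4.30% of present genes and 1.64% of all. The NRF-1 motif GCGCATGCG (reverse complement CGCATGCGC) was in Timm13 alone, or 3.23%, against 4.79% and 1.95%. No test was made of these shares. The letters of the NRF-1 motif overlap those of its own reverse complement, and within a member's promoter no match of one motif overlapped that of another. The 250 bases before the start are shown for Timm13, chr10:80900970-80901219 on the minus strand, as the single member with the NRF-1 motif, and for Pmpcb, chr5:21736910-21737159 on the plus strand, as the highest member with the ETS motif, a choice made after the values were seen. Capitals mark the motif.
Timm13: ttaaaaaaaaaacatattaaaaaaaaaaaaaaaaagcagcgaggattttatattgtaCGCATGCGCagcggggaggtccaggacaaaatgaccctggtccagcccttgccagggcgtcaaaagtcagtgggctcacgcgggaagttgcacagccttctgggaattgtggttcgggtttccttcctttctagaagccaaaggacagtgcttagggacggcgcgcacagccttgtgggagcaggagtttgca
Pmpcb: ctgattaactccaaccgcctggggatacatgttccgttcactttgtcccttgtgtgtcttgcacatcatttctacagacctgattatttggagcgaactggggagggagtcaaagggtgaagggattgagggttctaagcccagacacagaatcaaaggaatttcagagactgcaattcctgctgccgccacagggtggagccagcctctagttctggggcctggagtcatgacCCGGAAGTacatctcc

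The libraries were then compared by the log2 ratio of replicate 2 to replicate 1, from expected counts (estimated reads per gene) scaled by edgeR's TMM factors, for the 33 members whose counts averaged 10 or more. The members' median ratio was 0.24, where that of all 13522 such genes was -0.05. It was positive in 20 members and negative in 13. Exact 95% binomial intervals, which cover counting error only, left out 0 in 27 of the 33, or 81.8%, against 76.7% of all genes. The replicate error itself cannot be estimated from 2 libraries.

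Timm13 (203 and 582 reads) had the highest ratio, 2.09 (interval 1.86 to 2.33), and Tomm40 (342 and 511 reads) followed at 1.15 (0.95 to 1.36). These 2 members, 6.06%, were at least 2-fold higher in replicate 2, against 13.4% of all genes. Timm23 was lowest at -1.47 (-2.007 to -1.004), then Tomm20 at -1.27 (-1.48 to -1.06) and Tomm70a (3112 and 964 reads) at -1.12 (-1.22 to -1.01). These 3, 9.09%, were at least 2-fold lower, against 18% of all genes. Just inside 2-fold stood Tomm40l at 0.95 and Mtx2 at -0.90. Tomm7, with 1416 and 954 reads, was at 0.00. Scaled by the total of estimated reads, the median of all genes shifted to 0.26, and 7 members were at least 2-fold higher (22.4% of all genes) and 1 was lower (11.6%). With TPM the split was 7 (21.3% of all genes) and 2 (12.6%). Of the 3 members 2-fold lower with TMM factors, Tomm20 (-0.95) and Tomm70a (-0.80) were no longer so with total reads, nor were Timm23 (-0.57) and Tomm70a (-0.86) with TPM.

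For Timm23 and Tomm20 the ratio also turned on the copies. With the reads of the copies added, Timm23 moved from -1.47 to -0.47 (-0.64 to -0.29), on 821 and 399 reads, and Tomm20 from -1.27 to -0.88 (-1.06 to -0.70). Timm8a1 moved the other way, from -0.02 to -0.73 (-0.90 to -0.56), on 972 and 394 reads. On that count Tomm70a alone among the members was at least 2-fold lower.

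The ratio moved with base composition. Across all 13334 genes with a GC content, Spearman's rho between GC and the ratio was 0.66, and across the 33 members it was 0.62, descriptions over genes that share the same 2 libraries. All 6 members with a GC content of 55% or more were higher in replicate 2 (median ratio 0.70), as was 1 of the 6 below 45% (median -0.47), and 13 of the 21 between (median 0.25). Genes of the same 3 classes had medians of 0.80, -0.94 and -0.08. After the trend on GC was subtracted, the members' median was 0.24 and 3 members were at least 2-fold higher, against 7.6% of all genes: Timm9 (1.32), Tomm22 (1.31) and Timm13 (1.28). Timm23 alone was at least 2-fold lower, at -1.45, against 8.8%. Tomm70a and Tomm40, at 40.7% and 60.6% GC, came to -0.02 and 0.15. The part of GC in the difference between the libraries was not tested beyond this subtraction.

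**Figure D4:**
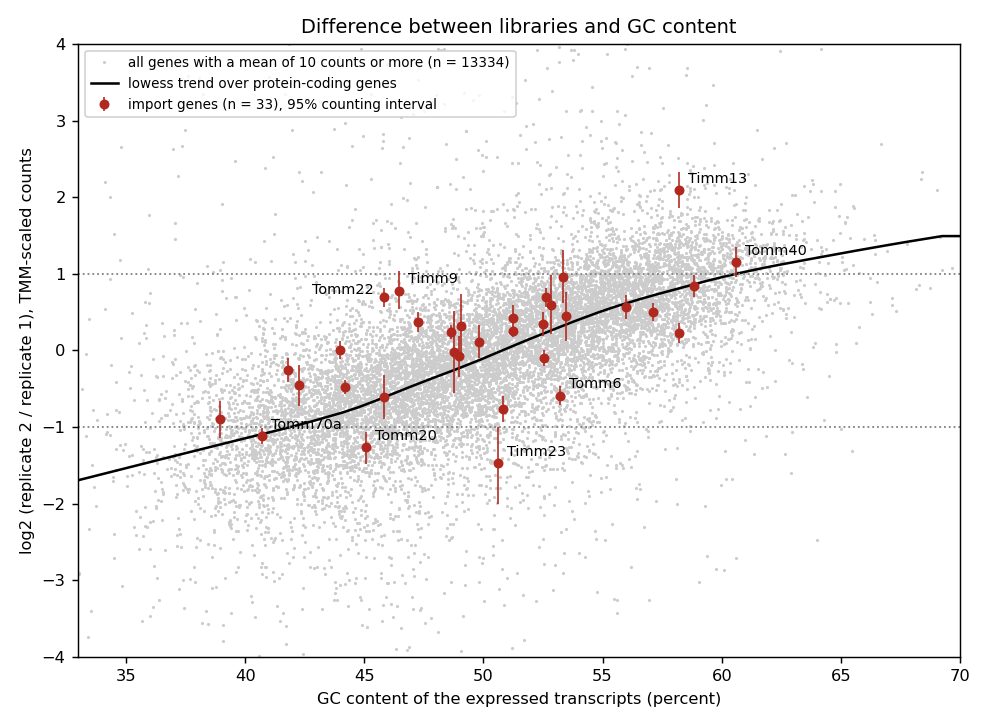
Log2 ratio of replicate 2 to replicate 1 (vertical axis) against the GC content of the expressed transcripts (horizontal axis, percent) for all genes whose counts averaged 10 or more (grey, of which 331 lie outside the drawn range) and for 33 import genes (red, with 95% counting intervals). The black line is the trend, the dotted lines mark 2-fold, and Timm13, Tomm22 and Timm9 sit above the trend while Timm23 sits below it.

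Genes that work beside the import machinery were taken from lists of its partners. Of the partners of the motor, 5 of 6 measured genes reached 1 TPM in both libraries, with a median of 10.1 TPM. Romo1, which encodes a subunit of the TIM23 complex, was at 66.0 and 218 TPM, Hspa9, the mitochondrial Hsp70, at 114 and 72.8 TPM, and the co-chaperone gene Dnaja3 at 10.6 and 17.9 TPM. Dnlz, which keeps Hspa9 soluble, was at 1.51 and 3.37 TPM, and the J-protein gene Dnajc15 at 0 and 0.12 TPM. Among 5 genes with a ratio, Romo1 was at least 2-fold higher in replicate 2, and Dnajc19, a paralog of Dnajc15 at 8.25 and 3.64 TPM, was at least 2-fold lower. With the GC trend removed neither was, at 0.70 and -0.75. Here and in the next lists, genes named only for lying past 2-fold were chosen after their values were seen. Of all genes averaging 10 counts or more, 13.4% were at least 2-fold higher in replicate 2 and 18% lower. With the GC trend removed the shares were 7.6% and 8.8%. The few genes past 2-fold in each list are to be read beside these shares.

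For matrix folding and processing, 15 of 16 genes reached 1 TPM in both libraries, with a median of 30.4 TPM. The chaperonins Hspe1 (279 and 320.1 TPM) and Hspd1 (94.8 and 63.6) and the protease subunit gene Clpp (43.1 and 101) were highest. The peptidase genes Xpnpep3 (4.77 and 7.63) and Immp2l (0.75 and 0.86) were lowest. None of the 16 was at least 2-fold higher, and 3 were lower: Hspd1 (log2 ratio -1.08), the protease gene Yme1l1 (-1.84) and the peptidase gene Immp1l (-1.20). None of these 3 was past 2-fold with the GC trend removed (-0.64, -0.51 and 0.02), whereas the protease gene Spg7 then was, at -1.29. For the oxidative route of the intermembrane space, 7 of 7 were present, with a median of 20.8 TPM. Chchd2 (112 and 146 TPM), Cox17 (101 and 64.4), a copper chaperone, and Chchd10 (27.4 and 44.8) were highest. Coa7 was at 5.24 and 2.6 TPM. The oxidoreductase gene Chchd4, whose protein takes up the small TIM proteins, was at 2.82 and 7.6 TPM and was the 1 gene past 2-fold, with a log2 ratio of 1.17, or 1.76 with the GC trend removed.

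Among outer-membrane insertion, porin and cristae genes, 12 of 12 were present, with a median of 54.9 TPM. Chchd3 (214 and 140.02 TPM) and Immt (115 and 81.2), both of the cristae complex, and the porin gene Vdac1 (78.8 and 100.3) were highest, and Chchd6 (6.91 and 17.8) and Apoo (4.26 and 1.39) lowest. Of the 12, Chchd6 was at least 2-fold higher in replicate 2 (log2 ratio 1.11), and Apoo (-1.67) and its paralog Apool (-1.17) were lower. With the GC trend removed none of them was past 2-fold, at 0.35, -0.85 and -0.04. All 6 genes of the inner-membrane list were present, with a median of 24.7 TPM. None was past 2-fold, and with the GC trend removed Tmem11 was, at -1.20. Tmem11 (68.7 and 57.6 TPM), Ghitm (62.1 and 64.1) and the insertase gene Oxa1l (38.8 and 37.9) were highest, and Letm1 (6.24 and 14.0) and Bcs1l (4.78 and 6.6) lowest.

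Genes on the list of cytosolic chaperones and precursor targeting were more abundant, with 16 of 16 present and a median of 74.7 TPM. Hsp90ab1 (2709.7 and 969 TPM), Hsp90aa1 (1052 and 303) and Hspa8 (339 and 816), the constitutive Hsp70, were highest, and Msto1 (12.2 and 30.4) and Ubqln2 (5.12 and 12.4) lowest. At least 2-fold higher in replicate 2 were Msto1, Ubqln2 and Ubqln4, with log2 ratios of 1.22, 1.03 and 1.16. At least 2-fold lower were Hsp90aa1 (-1.48), the J-protein gene Dnaja1 (-2.59) and Ttc1 (-1.43). With the GC trend removed, 2 of these 6 were past 2-fold, Ubqln2 (1.09) and Dnaja1 (-1.80). Of 13 genes of import quality control, stress response and nuclear regulators, all were present, with a median of 34.9 TPM. Ubxn4 (275 and 108 TPM), Ddit3 (165 and 173) and Vcp (122 and 151), a segregase ATPase, were highest. Dele1, which signals mitochondrial stress to the HRI kinase, was at 12.2 and 22.6 TPM, and Pink1 at 14.7 and 15.3 TPM. None of these 13 was at least 2-fold higher, and Gabpa, at 36.3 and 17.3 TPM, was lower (log2 ratio -1.42), though not with the GC trend removed (-0.45).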

How the data were processed

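Gene and transcript tables of polyA RNA-seq were analysed for 2 libraries of 1 group, MEL cells treated with 2% DMSO during 5 days. The deposited tables hold expected counts, not normalised, of the reads estimated for each gene and transcript, which the authors computed on mm10 with GENCODE M4 per the submitters' file lists. They also hold TPM values as deposited by the authors, scaled for effective length, FPKM values as deposited by the authors, used only as an alternative, and the percent of a gene's abundance on each transcript, per the file headers. Not given in the sources used here are the quantification program, the aligner and any use of strand.

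Symbols, classes and coordinates came from GENCODE M21 on the same assembly, matched by Ensembl identifier for 42462 of 43346 genes. Some M21 transcripts differ in length from those quantified, so GC content and shared windows are approximate there. Rows of other kinds, 26248 with a number as identifier and 97 for spike-in RNA, holding 0.0296% and 0.0465% of reads, were left out.

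Levels are TPM, with mean ± SD over 2 libraries. With 1 group no test was made. Replicate ratios and their exact 95% binomial intervals used expected counts rounded to whole numbers, with edgeR 4.0.16 TMM factors (R 4.3.3) and a prior count of 1. These intervals, and the limit of 3 counts for a count of 0 (0.115 and 0.212 CPM), cover counting error only. The GC trend was a lowess fit (span 0.3, 3 iterations, statsmodels 0.14.6) over 8894 genes averaging 100 counts or more. GC was known for 98.8% of genes at that depth. Copies were found with BLAST+ 2.17.0. The ratio, interval and trend steps were tested on simulated data with counting error alone and a linear GC bias. As no replicate error was simulated, only the calculation was checked. Other software was Python 3.11.15, pandas 2.3.3, numpy 2.4.6, scipy 1.17.1 and matplotlib 3.10.9. DESeq2 1.42.0 supplied alternative size factors.

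The members and lists were chosen with earlier results of these data known. All members were named, with the 3 highest and 2 lowest genes of each partner list and copies with a mean of at least 1 TPM. Members whose leading transcript was not protein-coding or differed between libraries were named as such. The cell marker genes were not named by this rule. Alternatives were other scalings, filters, prior counts, fold thresholds, copy criteria and each library alone. TPM on protein-coding transcripts alone, copies added to the ratio between libraries, and Timm10b without transcripts of Gm45799 were chosen after seeing the data. Protein sequences were not used here.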

Additional observations from a re-analysis of the deposited data

How the results depend on the processing

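With only 2 libraries, each summary also has a value from a single library: the members' median level ran from 19.4 to 28.3 TPM, their sum from 1060.05 to 1395 TPM, the number present stayed at 33, and the number led by a transcript that is not protein-coding ran from 7 to 9. Rescaling TPM to nuclear protein-coding genes gave a median of 39.5 and a sum of 2070.3 TPM, and protein-coding transcripts alone gave 16.5 and 798 TPM. By share of reads, 5 members were led by a transcript that is not protein-coding, against 8 by TPM. The median log2 ratio between libraries, 0.24 with TMM factors, was 0.55 with total reads, 0.51 with TPM and 0.31 with upper quartile factors. Members at least 2-fold higher in replicate 2 numbered 7 with total reads and 7 with TPM, against 2. Those 2-fold lower numbered 1 with total reads, 1 with the GC trend removed and 1 with copies added, against 3. At 1.5-fold, 8 were higher and 7 lower, and at 3-fold 1 was higher and 0 lower. The shares of all genes at 1.5-fold and 3-fold are not given here, so these counts cannot be set against them. Log2 ratios of the pairs' mean TPM changed sign when copies were added: Timm13 to Timm8a1 from 3.10 to -0.47, Timm23 to Timm17a from -2.32 to 0.62, and Tomm40 to Tomm20 from 1.67 to -0.37. These values add TPM over transcripts of unlike length. In replicate 2 alone, Timm13 stayed above Timm8a1 and its copy. Tomm40 to Tomm20 was -0.038 from expected counts without length scaling. Timm10 to Timm10b turned from -3.22 to 0.76 on protein-coding transcripts without those of Gm45799, a choice made after seeing the data. Except where copies were added or transcripts left out, the cause of these changes was not tested. DESeq2 size factors, prior counts of 0.5 and 5 and both count filters moved no member's ratio by more than its counting interval, with 31 members left at a mean of 100 counts. Of the 35 members' levels, 30 moved by more than 1 SD with the nuclear rescaling, 10 with protein-coding transcripts alone, 4 with the deposited posterior mean TPM and 4 with copies added. Depth limits Tomm20l and Timm8a2, with at most 4 reads.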
